A study of Rattus norvegicus with 6 samples.

Results

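Protease inhibitor genes were followed in 6 RNA-seq libraries of dorsal rat tongue epithelium, which the series describes as circumvallate papilla tissue. The members were all listed genes whose symbol begins with Serpin, names a cystatin (Cst followed by a digit, Csta or Cstb), or begins with Spint or Spink followed by a digit. This rule found 35 of the 14405 listed genes, made up of 24 serpins, 5 cystatins, 2 Kunitz-type and 4 Kazal-type inhibitors. The control group was 3 libraries from rats without periodontitis, and the other group was 3 libraries of the label chronic periodontitis, that is, lasting inflammation of the gums and bone around the teeth. The sources used here give no strain, age, sex, allele or agent for either group, do not say how periodontitis was produced, and do not say whether each library is a separate animal. The p-values below therefore measure only the spread between libraries, which may be technical.

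Protease inhibitors set the limits within which secreted and lysosomal proteases act. Most serpins are bait for a serine protease, which cuts an exposed loop and becomes trapped on the serpin, while cystatins block the active cleft of cysteine cathepsins. Stratified epithelium makes many clade B serpins, which stay inside the cell, together with the cystatins Csta, Cstb and Cst6 and the Kazal inhibitor Spink5. Several of these are incorporated into the cornified layer or restrain the kallikreins that shed it. Serpins of stroma and blood plasma instead regulate clotting, complement and collagen assembly.

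The values are FPKM, mapped fragments scaled by transcript length and library size, so levels of different genes can be set side by side but each value is a share of its library. The libraries summed to between 611713 and 660619 FPKM, and their sequencing depth is unknown. Control libraries correlated with each other at 0.966 to 0.980 (Pearson r of log2 values across genes, which are not independent replicates), and periodontitis libraries at 0.893 to 0.957. Periodontitis 1 and 3 stood apart from the other libraries. The 4 most abundant genes of the von Ebner glands, the serous glands that drain into the papilla, made up 15.2% of the FPKM sum in periodontitis 1 and 40.6% in periodontitis 3, against 23.5% in periodontitis 2 and 24.5% to 29.4% in controls. The epithelial keratins of the labelled tissue were abundant, with 563 ± 68.8 FPKM of Krt5 and 601 ± 116 FPKM of Krt14 in controls (SD, n = 3). Skeletal muscle markers summed to 2899 to 3983 FPKM in controls, so muscle RNA was present beside the epithelium.

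No protease inhibitor gene passed the test between the groups. Of the 35 members, 32 had at least 1 FPKM in at least 3 libraries and were tested with limma, a linear model that shares information on spread between genes, on log2(FPKM + 1). After Benjamini-Hochberg adjustment over the 13154 tested genes, 0 members had an adjusted p under 0.05, and 0 of all tested genes did (0%). Without adjustment, 0 members had a limma p under 0.05, where 0.38% of all tested genes were so and higher in periodontitis and 1.73% were so and lower. Log2 fold changes (periodontitis minus control, computed on log2(FPKM + 1), where low genes show less than their true change) ran from -0.93 for Serping1 to 0.36 for Serpinb3. Their median was -0.10, beside -0.03 over all tested genes. Of the members, 25 of 32 had a log2 fold change below 0, where 57.4% of all tested genes did. That count was 28 without periodontitis 1, 10 without periodontitis 3 and 11 for periodontitis 2 alone against the controls. In these fits the median over the members was -0.41, 0.29 and 0.10, beside -0.03, 0.03 and 0.10 over all tested genes. The share of all tested genes below 0 is not given for these fits.

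**Figure D1:**
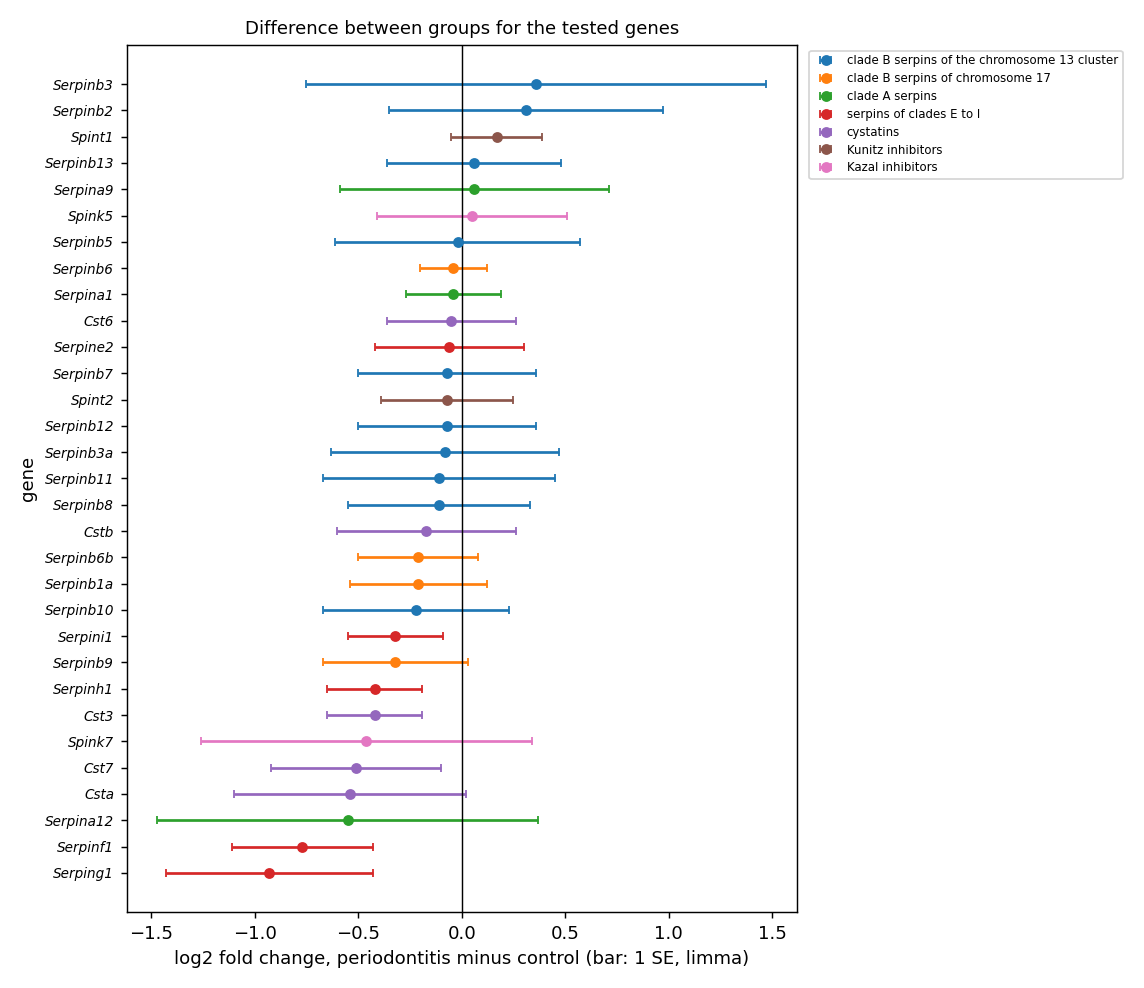
Log2 fold change of the tested genes reported here (horizontal axis, in units of log2(FPKM + 1), periodontitis minus control), with bars of 1 SE from limma and colours for the inhibitor groups. Serping1 (-0.93) and Serpinf1 (-0.77) lie lowest, Serpinb3 (0.36) lies highest with the widest bar, and no gene passed the adjusted threshold.

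Many of the members had periodontitis 1 and 3 on opposite sides of the controls. In 18 of the 32 tested members, periodontitis 1 lay above all 3 controls and periodontitis 3 below all 3, an arrangement seen in 24.5% of all tested genes. The reverse arrangement was seen in 1 member, Spint2, and in 12.2% of all tested genes. Periodontitis 3 was below the controls in 29 of 32 members (49.6% of all tested genes), and periodontitis 2 was within the control range in 22 of 32 (48.4% of all tested genes). The 35 members together made up 0.614% to 0.821% of the FPKM sum in controls, 1.09% in periodontitis 1, 0.798% in periodontitis 2 and 0.377% in periodontitis 3. The SD of log2 values was wider in periodontitis than in control for 30 of 32 members, with Cst7 and Serpini1 as the exceptions, and for 81.1% of all tested genes.

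**Figure D2:**
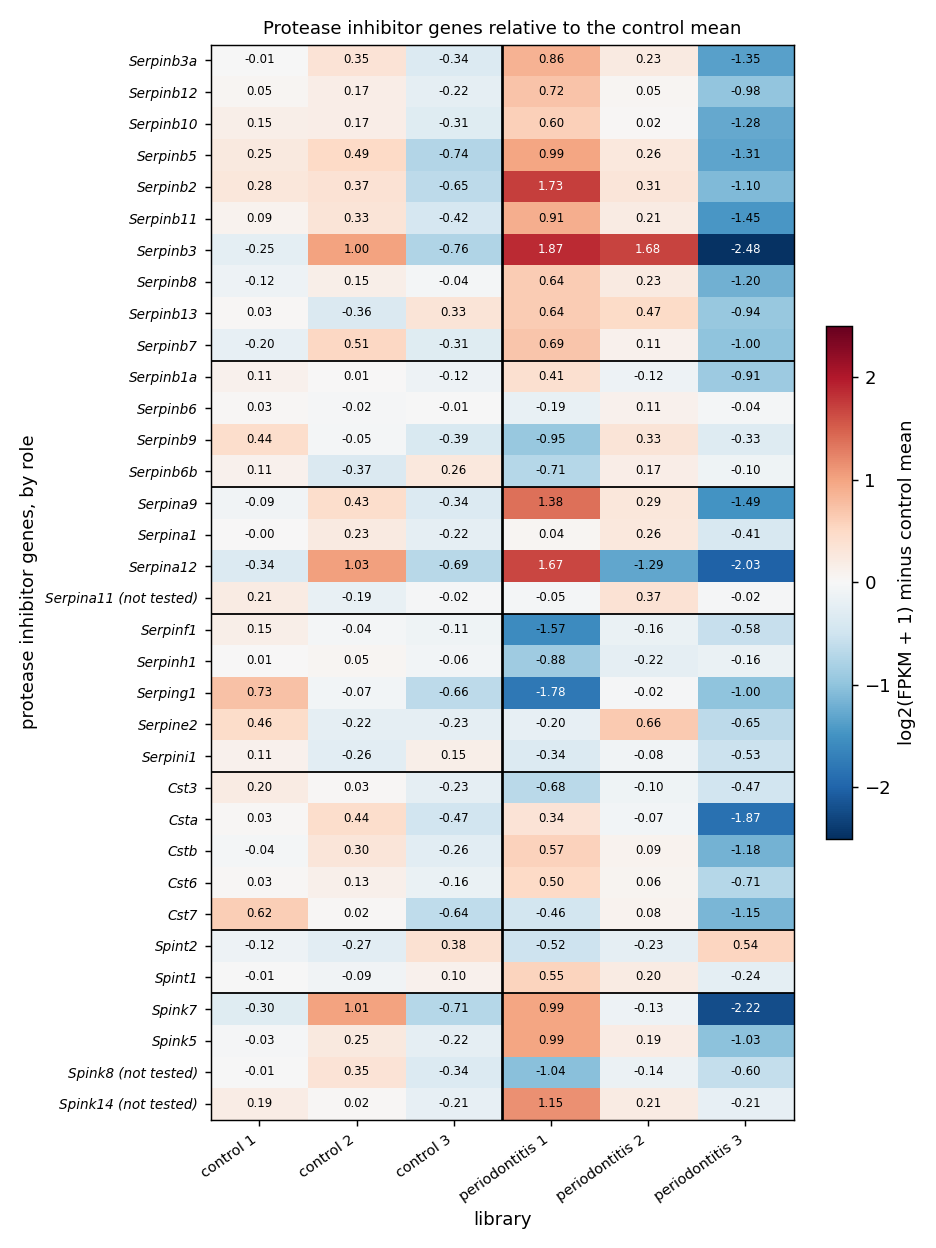
Log2(FPKM + 1) of the genes reported here (rows, grouped by role) in each library (columns), minus the mean of the 3 controls for that gene. The rows of the chromosome 13 clade B serpins run from higher in periodontitis 1 to lower in periodontitis 3, whereas Serpinf1, Serpinh1 and Serping1 are lowest in periodontitis 1.

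Among the 35 members, the clade B serpins of chromosome 13 had the largest summed FPKM of the inhibitor groups in all 6 libraries, although single genes among them ranged from the most abundant member to low levels. The tables list 10 of them side by side, from Serpinb5 to Serpinb8 on chromosome 13 (26903052 to 27914006 in the coordinates of the deposited tables, a rat build that the sources used here do not name), with no other listed gene between them. Serpinb3a, a homologue of the squamous cell carcinoma antigens, had 1119, 1430 and 891 FPKM in controls 1 to 3 and 2047, 1321 and 441 FPKM in periodontitis 1 to 3. Serpinb12, an intracellular inhibitor of trypsin-like proteases, had 944, 1028 and 782 FPKM in controls and 1506, 943 and 463 FPKM in periodontitis. Both were highest in periodontitis 1 and lowest in periodontitis 3, with periodontitis 2 among the controls. Serpinb3a was the most abundant member in 5 of 6 libraries and Serpinb12 in periodontitis 3. Their group means of 1146 ± 271 and 918 ± 125 FPKM in controls (SD, n = 3) overlapped within 1 SD. Within each of the 3 controls, however, Serpinb3a was the higher of the 2 genes.

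Serpinb10, a serpin first described in bone marrow, had 245, 248 and 178 FPKM in controls and 334, 224 and 90.6 FPKM in periodontitis. Serpinb5, or maspin, which lacks inhibitory activity and is made by epithelial cells, had 179, 212 and 89.5 FPKM in controls and 299, 181 and 60.0 FPKM in periodontitis. Serpinb2, plasminogen activator inhibitor type 2, had 111, 118 and 57.9 FPKM in controls and 306, 114 and 42.1 FPKM in periodontitis. In these genes too the range of the periodontitis libraries enclosed the controls, and control 3 was the lowest control. Serpinb11 had 90.6, 107 and 63.5 FPKM in controls and 160, 98.8 and 30.4 FPKM in periodontitis.

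The other members of the cluster were lower in level. Serpinb3, a close copy of Serpinb3a whose reads may be divided with it, averaged 24.2 ± 16.5 FPKM over the controls (SD, n = 3) and had 79.2, 69.4 and 2.94 FPKM in periodontitis 1 to 3. Its 26.9-fold span between periodontitis 1 and 3 was the widest of the tested members. Serpinb8, an inhibitor of furin, had a mean of 16.5 ± 1.71 FPKM over the controls and 17.4 ± 9.98 over the periodontitis libraries (SD, n = 3). Serpinb13, an inhibitor of cysteine cathepsins in keratinocytes, had 12.8 ± 3.24 and 14.6 ± 7.52 FPKM. Serpinb7, or megsin, had 11.8 ± 4.23 and 12.2 ± 6.89 FPKM. These 4 genes also had periodontitis 1 above and periodontitis 3 below the controls.

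Thus all 10 genes of the cluster had periodontitis 1 above the controls and periodontitis 3 below them, also when the libraries were rescaled without the 4 gland genes or quantile normalized. Their ratio of periodontitis 1 to periodontitis 3 ran from 3.25 for Serpinb12 to 26.9 for Serpinb3, against a ratio of the highest to the lowest control of 1.22 to 3.58. The group difference was small beside this span. Log2 fold changes were -0.08 ± 0.55 for Serpinb3a, -0.07 ± 0.43 for Serpinb12, -0.22 ± 0.45 for Serpinb10, -0.02 ± 0.59 for Serpinb5 and 0.31 ± 0.66 for Serpinb2 (SE, limma adjusted p = 1.0 each). For Serpinb3 it was 0.36 ± 1.11 (SE, limma adjusted p = 1.0). The sign depended on a single library. Without periodontitis 1 the 10 log2 fold changes ran from -0.63 to -0.23, and without periodontitis 3 from 0.31 to 1.78.

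**Figure D3:**
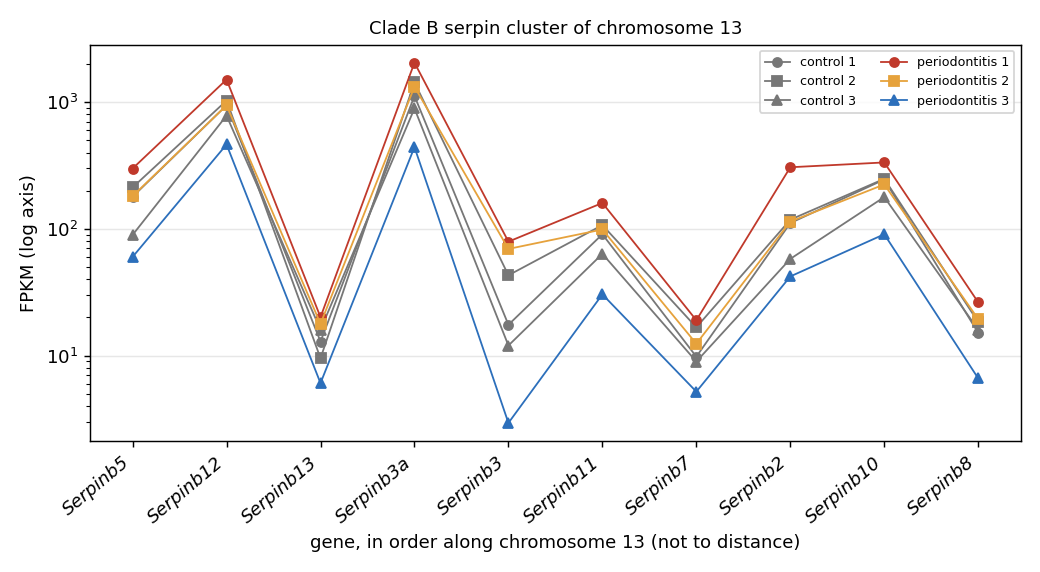
FPKM on a log axis of the 10 clade B serpins of chromosome 13, in their order along the chromosome, with a line for each library. The line of periodontitis 1 lies above and that of periodontitis 3 below every control at all 10 genes, while Serpinb3 lies above Serpinb13 in periodontitis 2 and below it in periodontitis 3.

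Markers of cornified epithelium, the flattened outer cells, also had their highest FPKM sum in periodontitis 1 and their lowest in periodontitis 3. Of 11 such genes 8 were tested, and 8 of 8 had periodontitis 1 above and periodontitis 3 below all controls, as had 3 of 4 tested markers of basal epithelium and 24.5% of all tested genes. Their FPKM sum was 1886 to 3206 in controls and 5828, 3396 and 1108 in periodontitis 1 to 3, and none was at 0. Their median log2 deviation from the control mean was 1.24, 0.41 and -1.20 in periodontitis 1 to 3, against 0.79, 0.23 and -1.24 for the 10 serpins. Krt10, a keratin of these cells, had 129 to 231 FPKM in controls and 642, 332 and 76.7 FPKM in periodontitis. The part of epithelial content in the serpin values was not tested. In bulk tissue, fewer cells of a type and less RNA per cell cannot be told apart.

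**Figure D4:**
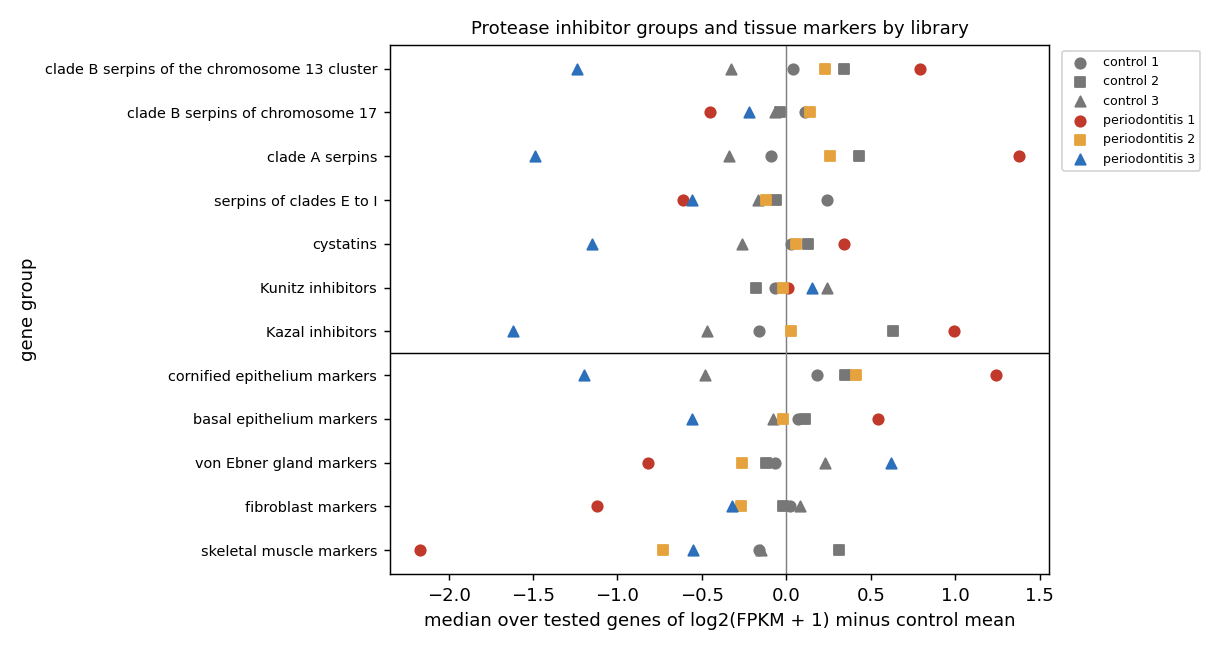
Median over the tested genes of each inhibitor group (upper rows) and of 5 marker lists (lower rows) of log2(FPKM + 1) minus the control mean, with a point for each library. Periodontitis 1 and 3 lie at opposite ends for the chromosome 13 serpins (0.79 and -1.24) and for cornified epithelium (1.24 and -1.20), and fibroblast and muscle markers are lowest in periodontitis 1.

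Promoter sequences from RefSeq (build GRCr8, a different build from that of the deposited coordinates) were matched by symbol for 26 of the 35 members. The 250 bases upstream of the start were searched on both strands for an AP-1 site (TGACTCA, read TGAGTCA on the other strand), a TATA box (TATAAA) and a GC box (GGGCGG). These motifs do not overlap in their letters and were present in 3, 6 and 10 of the 26 member promoters, against 4.05%, 12.9% and 30.5% of the 33469 promoters in the table. Serpinb3a, Serpinb12 and Serpinb8 of the cluster had no single match by symbol and were not searched. Among the searched members, Serpinb3 and Serpinb7 of the cluster held both an AP-1 match and a TATA match. They are shown for that reason, each 5′ to 3′ on its gene's strand with the matches in capitals. Serpinb3 lies on the minus strand (chr13:23795299-23795548) and Serpinb7 on the plus strand (chr13:23910056-23910305).
Serpinb3: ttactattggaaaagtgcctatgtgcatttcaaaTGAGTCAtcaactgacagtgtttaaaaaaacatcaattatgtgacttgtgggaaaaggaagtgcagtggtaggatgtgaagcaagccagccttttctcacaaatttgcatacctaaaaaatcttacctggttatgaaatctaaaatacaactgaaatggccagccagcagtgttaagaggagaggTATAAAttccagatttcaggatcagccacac
Serpinb7: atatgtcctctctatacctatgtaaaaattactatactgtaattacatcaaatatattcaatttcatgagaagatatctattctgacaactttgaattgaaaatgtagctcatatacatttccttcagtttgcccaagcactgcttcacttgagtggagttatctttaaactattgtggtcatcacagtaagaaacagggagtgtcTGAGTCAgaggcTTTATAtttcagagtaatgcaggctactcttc
In Serpinb3 the TATA match begins 31 bases and the AP-1 match 216 bases before the start. In Serpinb7 the TATA match, read on the other strand, begins 32 bases and the AP-1 match 44 bases before it. The AP-1 letters were otherwise found in Spint1, and a TATA match in Serpinb13, Serpinb1a, Spink5 and Spink7. A match describes the letters in this window and is not a measured site.

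Of the 4 clade B serpins of chromosome 17, only Serpinb1a shared the order of the chromosome 13 cluster. Serpinb1a, an inhibitor of neutrophil elastase, had 183, 171 and 155 FPKM in controls and 225, 155 and 89.8 FPKM in periodontitis, and was the 1 of the 4 with periodontitis 1 above and periodontitis 3 below the controls. Serpinb6, a broadly made inhibitor of trypsin-like proteases, varied least, with 47.5 to 49.2 FPKM in controls and 41.9, 52.0 and 46.7 FPKM in periodontitis. Serpinb9, which protects cells from granzyme B, had 14.3, 9.87 and 7.63 FPKM in controls and 4.83, 13.2 and 7.97 FPKM in periodontitis. Serpinb6b, a copy of Serpinb6 whose reads may be shared with it, had a mean of 2.25 ± 0.692 FPKM over the controls and 1.84 ± 0.826 over the periodontitis libraries (SD, n = 3). Apart from Serpinb1a, these genes were lowest in periodontitis 1. Log2 fold changes in the group of 4 ran from -0.32 (Serpinb9) to -0.04 (Serpinb6), and all had a limma adjusted p of 1.0.

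Clade A serpins, which are mostly secreted and lie together on chromosome 6, held a steady member and members that differed widely between libraries. Serpina1, alpha-1 antitrypsin, the plasma inhibitor of neutrophil elastase, had 42.9, 50.4 and 36.6 FPKM in controls and 44.1, 51.5 and 32.0 FPKM in periodontitis. Serpina9, known from germinal centre B cells, had 43.0, 62.0 and 35.9 FPKM in controls and 121, 56.2 and 15.6 FPKM in periodontitis. Serpina12, or vaspin, an inhibitor of kallikrein 7, had 9.99, 27.6 and 7.65 FPKM in controls and 43.4, 4.69 and 2.41 FPKM in periodontitis. The last of these had an 18.0-fold span between periodontitis 1 and 3. Log2 fold changes were -0.04 ± 0.23, 0.06 ± 0.65 and -0.55 ± 0.92 in that order (SE, limma adjusted p = 1.0 each). Serpina11 had 0.705 to 1.51 FPKM and was not tested. Of the liver markers, which would accompany plasma serpins of hepatic origin, 1 of 6 was listed (Tf, a mean of 191 ± 21.7 FPKM over the controls and 145 ± 40.2 over the periodontitis libraries, SD, n = 3), so the liver list was too short to describe hepatic RNA.

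The serpins of stroma and plasma in clades E to I held the 3 members with the smallest p. Serpinf1, pigment epithelium-derived factor, a secreted non-inhibitory serpin that restrains vessel growth, lies on chromosome 10 (62241756 to 62254287 in the deposited tables). It had 112, 97.5 and 92.8 FPKM in controls and 33.2, 89.9 and 66.6 FPKM in periodontitis. All 3 periodontitis libraries were below all 3 controls, with periodontitis 2 close to control 3. The log2 fold change was -0.77 ± 0.34 (SE, limma adjusted p = 1.0). Serpinh1, or Hsp47, the collagen chaperone of the endoplasmic reticulum on chromosome 1 (164301010 to 164308317), had 92.2, 94.5 and 87.6 FPKM in controls and 49.1, 78.1 and 81.5 FPKM in periodontitis. Its groups did not overlap either, although they did after rescaling without the gland genes and after quantile normalization. The log2 fold change was -0.42 ± 0.23 (SE, limma adjusted p = 1.0). These were the 2 of 32 members whose periodontitis libraries all lay below the controls, where 3.59% of all tested genes did so, and 0 lay above (1.97% of all tested genes).

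Serping1, the C1 inhibitor, which controls the first step of complement and the contact system, lies on chromosome 3 (72161189 to 72171078). Its levels were 108, 61.8 and 40.9 FPKM in controls and 18.2, 64.1 and 31.9 FPKM in periodontitis. Its controls spanned 2.65-fold, and periodontitis 2 lay among them. The log2 fold change was -0.93 ± 0.50 (SE, limma adjusted p = 1.0). Serpine2, protease nexin-1, an inhibitor of thrombin and plasminogen activators, had 47.8, 29.5 and 29.2 FPKM in controls and 30.0, 55.1 and 21.7 FPKM in periodontitis. Serpini1, neuroserpin, an inhibitor of tissue plasminogen activator in neurons, had a mean of 1.43 ± 0.368 FPKM over the controls and 0.955 ± 0.305 over the periodontitis libraries (SD, n = 3). For Serpine2 and Serpini1 the log2 fold changes were -0.06 and -0.32, and their groups overlapped.

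**Figure D5:**
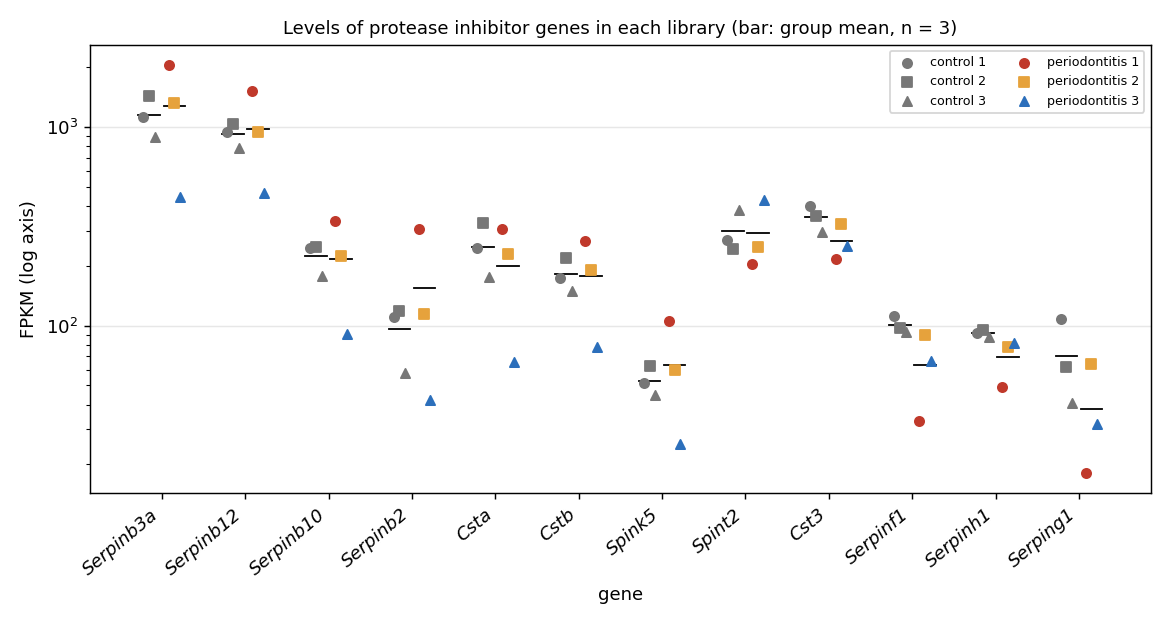
FPKM on a log axis of 12 members in each library, with controls in grey, periodontitis libraries in colour and a black bar for each group mean (n = 3). The epithelial members from Serpinb3a to Spink5 have periodontitis 3 below all controls, Spint2 has it above them, and Serpinf1 and Serpinh1 have all 3 periodontitis libraries below the controls.

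Fibroblast markers were measured beside these serpins. Of 7 such genes 6 were tested, all 6 with a log2 fold change below 0 and a median of -0.66. Their FPKM sum was 1418 to 1498 in controls and 607, 1281 and 1039 in periodontitis 1 to 3, and none was at 0. Sparc, a matrix-binding glycoprotein, had a log2 fold change of -0.68 ± 0.24 (SE, limma adjusted p = 1.0), and Lum, a collagen-binding proteoglycan, -0.64. Among the genes of collagen and its assembly, the clients and partners of Serpinh1, 16 of 16 tested had a log2 fold change below 0. Their median was -0.35, and 0 passed the adjusted threshold in either direction. The difference lay mostly in periodontitis 1, with a median log2 deviation from the control mean of -0.80, -0.15 and -0.06 in periodontitis 1 to 3. The FPKM sum of this list was 1176 to 1431 in controls and 763, 1029 and 1285 in periodontitis 1 to 3, so periodontitis 3 lay among the controls. Col1a1 and Col3a1 belong to both lists, and 57.4% of all tested genes had a log2 fold change below 0. Col3a1 had a mean of 304 ± 45.7 FPKM over the controls and 176 ± 104 over the periodontitis libraries (SD, n = 3), and the prolyl isomerase Fkbp10 had 5.12 ± 0.653 and 3.54 ± 0.768 FPKM. Log2 fold changes of Col1a1 and Col5a2 were -1.40 and -0.71. The part of stromal content in the values of Serpinf1, Serpinh1 and Serping1 was not tested.

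The upstream sequences of Serpinf1 and Serpinh1 are shown because these were the members whose groups did not overlap. Both genes lie on the minus strand in GRCr8, at chr10:60760899-60761148 for Serpinf1 and chr1:163062977-163063226 for Serpinh1, and the capitals mark a GC box match.
Serpinf1: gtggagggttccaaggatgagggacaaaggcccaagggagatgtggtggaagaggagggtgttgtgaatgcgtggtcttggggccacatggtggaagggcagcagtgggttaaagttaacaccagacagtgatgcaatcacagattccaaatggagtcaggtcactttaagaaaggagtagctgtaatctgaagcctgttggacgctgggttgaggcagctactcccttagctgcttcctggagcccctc
Serpinh1: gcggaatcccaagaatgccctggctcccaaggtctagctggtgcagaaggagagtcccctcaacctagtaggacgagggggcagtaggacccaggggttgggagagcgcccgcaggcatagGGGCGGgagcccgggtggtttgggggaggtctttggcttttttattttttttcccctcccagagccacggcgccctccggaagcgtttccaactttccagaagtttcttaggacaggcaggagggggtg
Serpinh1 held a GC box match that begins 129 bases before the start, and Serpinf1 held none of the 3 motifs in this window. The GC content of the 250 bases was 53.2% for Serpinf1 and 60.4% for Serpinh1, against 38.0% for Serpinb3 and 34.0% for Serpinb7.

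The genes most like these 3 members over the 6 libraries were named by Pearson r of log2(FPKM + 1), as a description in which all points share the library totals. For Serpinf1 they were the matrix genes Fbln1 (r = 0.998), Loxl1 (0.998) and Fn1 (0.997). Serping1 was most like the chemokine gene Ccl19 (r = 0.997), Ptpro (0.995) and Il18bp, which encodes an interleukin-18 binding protein (0.989). The nearest to Serpinh1 were Neurl1 (r = 0.997), the thrombospondin gene Thbs4 (0.997) and Prdx3, a mitochondrial peroxidase (0.995). A value above 0.95 was reached by 258 genes for Serpinf1, 92 for Serping1 and 235 for Serpinh1, so over 6 libraries many genes share each pattern.

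The cystatins comprised Cst3, the genes Csta, Cstb and Cst6 that stratified epithelium makes, and Cst7. Cst3, cystatin C, the broadly secreted inhibitor of cathepsins on chromosome 3 (143219686 to 143223615), had 401, 356 and 297 FPKM in controls and 217, 325 and 251 FPKM in periodontitis. Periodontitis 1 and 3 were below the controls and periodontitis 2 among them, with a log2 fold change of -0.42 ± 0.23 (SE, limma adjusted p = 1.0). Csta, or stefin A, a cytosolic cystatin of the cornified envelope, had 247, 327 and 175 FPKM in controls and 305, 229 and 65.4 FPKM in periodontitis. Cstb, the related stefin B, had 174, 219 and 149 FPKM in controls and 265, 190 and 78.3 FPKM in periodontitis. Cst6, cystatin M/E, which restrains legumain and cathepsins in the epidermis, had 101, 109 and 88.7 FPKM in controls and 141, 104 and 60.3 FPKM in periodontitis.

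Periodontitis 3 was the lowest library for Csta, Cstb and Cst6, and periodontitis 1 the highest for Cstb and Cst6. Log2 fold changes of the 3 genes were -0.54, -0.17 and -0.05. Without periodontitis 3 they were 0.13 for Csta, 0.33 for Cstb and 0.28 for Cst6. Without periodontitis 1 they were -0.97, -0.54 and -0.32 in the same order. Cst7, cystatin F, a cystatin of immune cells, had 7.13, 4.39 and 2.40 FPKM in controls and 2.86, 4.59 and 1.39 FPKM in periodontitis (log2 fold change -0.51 ± 0.41, SE, limma adjusted p = 1.0). Macrophage markers, tested in 5 of 5 genes with none at 0, summed to 79.5 to 113 FPKM in controls and 48.3, 90.4 and 65.3 FPKM in periodontitis 1 to 3, and their part in the Cst7 values was not tested.

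The membrane-bound Kunitz inhibitors had periodontitis 1 and 3 in opposite order. Spint1 and Spint2, also called HAI-1 and HAI-2, restrain the epithelial membrane proteases matriptase, prostasin and hepsin. Spint2 had 269, 243 and 382 FPKM in controls and 203, 248 and 427 FPKM in periodontitis, with periodontitis 3 highest and periodontitis 1 lowest. Spint1 had 26.9, 25.5 and 29.1 FPKM in controls and 40.3, 31.3 and 22.8 FPKM in periodontitis, with periodontitis 1 highest and periodontitis 3 lowest. Log2 fold changes were -0.07 ± 0.32 and 0.17 ± 0.22 (SE, limma adjusted p = 1.0 each). Von Ebner gland markers, 7 of 7 tested with none at 0, summed to 166846 to 196947 FPKM in controls and 100819, 150302 and 277842 FPKM in periodontitis 1 to 3. The sum was lowest in periodontitis 1 and highest in periodontitis 3, as for Spint2, but single markers such as Bpifa2 and Amy1a were highest in control 3. The part of gland content in the Spint2 values was not tested.

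Of the 4 Kazal-type inhibitors 2 were tested, and both had periodontitis 3 as the lowest library. Spink5, or LEKTI, which restrains kallikreins in stratified epithelium, had 51.3, 62.4 and 44.9 FPKM in controls and 105, 59.8 and 25.2 FPKM in periodontitis. Spink7, a Kazal inhibitor of oesophageal epithelium, had 52.9, 132 and 39.4 FPKM in controls and 130, 59.3 and 13.2 FPKM in periodontitis. For Spink7, control 2 was as high as periodontitis 1. Log2 fold changes were 0.05 ± 0.46 and -0.46 ± 0.80 (SE, limma adjusted p = 1.0 each). Spink8 had at most 1.62 FPKM and Spink14 at most 1.57 FPKM, in control 2 and periodontitis 1, and neither was tested. Spink8 was listed at 0 in periodontitis 1, and Spink14 in control 3 and periodontitis 3.

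A list of proteases was set beside the inhibitors, and not each of its genes is a known target of them. It also held non-proteases such as Plaur, F3 and Hgf, and the aspartic protease Ctsd. The list had 64 genes, of which 47 were tested. Of these, 0 passed the adjusted threshold in either direction, 13 had a log2 fold change above 0 and 34 below, and the median was -0.09. Without adjustment, 2 had a limma p under 0.05 (Ctsk and Tpsab1), both lower in periodontitis, where 1.73% of all tested genes were lower at that p. Ctsk, cathepsin K, a collagen-degrading target of cystatins, had 20.9, 17.9 and 19.8 FPKM in controls and 7.39, 14.1 and 10.2 FPKM in periodontitis. All 3 periodontitis libraries were below the controls, with a log2 fold change of -0.87 ± 0.23 (SE, limma adjusted p = 1.0). The mast cell tryptase Tpsab1 had a mean of 1.46 ± 0.438 FPKM over the controls and 0.543 ± 0.359 over the periodontitis libraries (SD, n = 3, limma adjusted p = 1.0). Its values of 0.128 to 1.94 FPKM lay around the filter of 1 FPKM. C1r and C1s, the complement proteases that Serping1 inactivates, had log2 fold changes of -0.80 ± 0.41 and -0.90 ± 0.46 (SE, limma adjusted p = 1.0 each), beside -0.93 for Serping1. C1s had 119, 79.8 and 76.8 FPKM in controls and 22.1, 85.2 and 57.5 FPKM in periodontitis, so periodontitis 1 was lowest for the protease as for its inhibitor.

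Inhibitors of other families numbered 47, of which 26 were tested. Of these, 0 passed in either direction, 7 had a log2 fold change above 0 and 19 below, and the median was -0.15. The metalloproteinase inhibitors Timp2 and Timp3 had log2 fold changes of -0.35 and -0.54, Wfdc2 had -0.59 and Pi15 had -0.73. Wfdc2, a whey acidic protein-type inhibitor of secretory epithelium, had 168, 211 and 327 FPKM in controls and 92.1, 166 and 220 FPKM in periodontitis. The arrangement with periodontitis 1 above and periodontitis 3 below the controls was found in 8 of these 26 genes. Of the 47 tested genes of the protease list, 17 had it, against 24.5% of all tested genes.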

How the data were processed

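RNA-seq was made from total RNA of dorsal rat tongue epithelium (3 control and 3 chronic periodontitis libraries, grouped by the disease label). The deposited values are FPKM per the file headers, with 14405 protein-coding genes in each library. The submitters' processing notes name cutadapt, FastQC, HISAT2 and StringTie, without versions. Those notes name the mouse build mm10, while identifiers in the tables are those of rat, so the rat build of the printed gene positions is unknown. With no read counts, depth or strand stated, counting intervals were not computed.

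A gene was tested if 3 or more libraries had 1 FPKM or more (13154 genes), on log2(FPKM + 1) with limma 3.58.1 in R 4.3.3, using a mean-variance trend and a single term for group. P-values were two-sided, adjusted by Benjamini-Hochberg over all tested genes and read at 0.05. The procedure was run on simulated data in which both groups had the spread of the controls. In the measured log2 values the median SD over all tested genes was 0.17 in controls and 0.34 in periodontitis. The simulation does not cover that difference. The members and gene lists were chosen with earlier results of these data known. The rule for naming took the 15 members with the highest mean, the 10 with the smallest p, those with groups apart and 25 key members, of which 22 were listed (Serpina3n, Serpinc1 and Serpind1 were not analysed here). It named 26, and the other 9 are given so that the members are accounted for. A member that enters the counts but is not reported here has no values in the text or figures. From each list up to 4 genes with the smallest p were taken. The alternatives tried were a block for the replicate number, leaving out each library, other filters, scalings, pseudocount and threshold. Periodontitis 2 alone and the library order under other scalings were added after the data were seen. No library had the same values as another.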

Additional observations from a re-analysis of the deposited data

How the results depend on the processing

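The count of members past the threshold was 0 under every alternative run. The count over all tested genes was 0, and was 3 with the replicate number as a replicate block, 0 to 1 with each library left out, 1 for periodontitis 2 alone and 1 at an adjusted p threshold of 0.1, none of them a member. Same-numbered libraries are not taken as pairs, because their deviations from the group means correlated at 0.0902, 0.0346 and 0.461, and a best match with the own number was found for number 3 alone. With 1 library left out, 25 of 32 members changed sign in at least 1 fit. The 7 that did not were below 0 in all 6 fits, namely Cst3 (-0.58 to -0.28), Cst7 (-0.83 to -0.19), Serpinb9 (-0.64 to -0.00), Serpinf1 (-1.08 to -0.37), Serping1 (-1.39 to -0.51), Serpinh1 (-0.55 to -0.19) and Serpini1 (-0.45 to -0.21). The value of smallest size came without periodontitis 1 for Cst3, Serpinb9, Serpinf1, Serping1 and Serpinh1, and without periodontitis 3 for Cst7 and Serpini1. The 6 fits share most of their libraries. The share of all tested genes that kept their sign in them is not given, so these 7 members are not read as a result. An unadjusted limma p under 0.05 was reached by Serpinf1 with the replicate block, by Serping1 without control 3 and by Serpina12 without periodontitis 1. It was also reached by Serpinf1 and Serping1 without periodontitis 2, and by Serpinb13, Serpinb3 and Serpinh1 without periodontitis 3. The share of all tested genes at that p is not given for these fits, so these members are not read as a result. Periodontitis 2 alone has no spread of its own and is assumed to vary like the controls. Rescaling without the gland genes changed the sign of 1 member, Serpinb5 (0.01). Members with periodontitis 1 above and periodontitis 3 below the controls numbered 17 after that rescaling (12.1% of all tested genes) and 16 after quantile normalization (18.8%). No depth is known from which a limit for low members could be computed.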

Other observations

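Ratios of members within a library do not depend on the library's scaling. Serpinb12 had 0.714 to 0.878 times the FPKM of Serpinb3a in 5 libraries and 1.05 times in periodontitis 3. Serpinb10 had 2.20, 2.09 and 3.07 times the FPKM of its neighbour Serpinb2 in controls, and 1.09, 1.97 and 2.15 times in periodontitis 1 to 3, so periodontitis 1 was the library where the pair was closest to equal. Csta exceeded Cstb 1.17-fold to 1.49-fold in controls, 1.15-fold and 1.20-fold in periodontitis 1 and 2, and was at 0.835 times Cstb in periodontitis 3. Serpinb3 was at 0.0135 to 0.0301 times Serpinb3a in controls and at 0.0387, 0.0525 and 0.00667 times in periodontitis. Spint2 exceeded Spint1 9.52-fold to 13.1-fold in controls, and 5.03-fold, 7.93-fold and 18.7-fold in periodontitis 1 to 3. Serpinf1 was at 1.03 to 1.21 times Serpinh1 in controls and at 0.676, 1.15 and 0.817 times in periodontitis.

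Other marker lists gave the setting of these values. Median log2 fold changes were -1.15 for skeletal muscle, -0.69 for mast cells, -0.38 for macrophages, -0.14 for endothelium, -0.14 for taste buds, -0.15 for von Ebner gland, 0.03 for basal epithelium, 0.16 for cornified epithelium, 0.80 for neutrophils and 1.03 for red blood cells, and 0 genes of these lists passed the adjusted threshold in limma. Without adjustment, 5 muscle, 1 macrophage and 1 mast cell gene were lower and 3 red blood cell rows higher at a limma p under 0.05. The neutrophil markers S100a8 and S100a9, which epithelium also makes, had log2 fold changes of 0.80 and 1.06, and their summed level with Cxcr2 was 80.6 to 138 FPKM in controls and 211, 502 and 75.5 FPKM in periodontitis 1 to 3. Elane, the neutrophil elastase that Serpina1 and Serpinb1a inhibit, was not analysed here.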
